A study of Mus musculus with 48 samples.

Results

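The transcripts of 32 genes of coagulation and complement were followed in the liver, the organ that makes most of the proteins of both cascades. The genes were taken by symbol from the deposited count table, which held all 32 among its 22354 genes, and all 32 were among the 13646 genes with enough counts to be tested. Livers came from 23 female C57BL/6J mice labelled KO, with Bmal1 (symbol Arntl), an activator of the circadian clock, knocked out in adipocytes. They were compared with livers of 25 female C57BL/6J mice labelled WT. Both genotypes were kept in a light and dark cycle, spent 1 day in darkness, were fasted for 24 h and were killed at ZT0, ZT4, ZT8, ZT12, ZT16 or ZT20, the hours of the light cycle. Each time had 4 KO and 4 WT mice, except ZT16 with 3 KO and 5 WT mice. The promoter that drives the adipocyte deletion is not given in the sources used here. The mice were 28.75 to 105 weeks old. At ZT20 they averaged 42.1 weeks in both genotypes, against 56.9 to 73.4 weeks at the other times, so the ZT20 mice were younger on average, with ages that overlapped those of the other times. Body weight was 24.2 ± 3.57 g in the 23 KO mice, against 21.8 ± 2 g in the 25 WT mice (SD).

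Coagulation is a chain of serine proteases, most of them made by hepatocytes as inactive precursors, that ends in thrombin cutting fibrinogen into fibrin. Complement is a second protease chain, started by antibodies, by sugar-binding lectins or by spontaneous turnover of C3, which coats microbes with C3 fragments and ends in a membrane pore. Several members of both systems are acute phase genes, which the liver raises during inflammation. Clot formation and clot lysis are known to vary with time of day in mammals.

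Each library held about 12.9e6 counts without albumin, and the 32 genes together took 2.94% to 5.04% of them in KO livers and 2.64% to 7.78% in WT livers. Arntl had 18.1 ± 13.2 CPM in KO livers and 18.4 ± 14.1 CPM in WT livers (SD, n = 23 and 25), where CPM are counts scaled to a common library size. Its deletion is in adipocytes, so its level in liver does not check the labels. Hepatocyte marker genes summed to 24400 to 62200 CPM in KO livers and 33100 to 56800 CPM in WT livers. Adipocyte markers summed to 14.2 to 176 CPM in KO livers and 35 to 275 CPM in WT livers, and none of 7 was at 0 in all libraries. Only 2 of the 7, Plin4 and Cidec, had enough counts to be tested, and Adipoq, Plin1, Lep, Retn and Cfd did not. Plin4 averaged 78 ± 40.1 CPM in KO livers and 117 ± 63 CPM in WT livers (SD). Cidec averaged 14 ± 18.4 and 11.5 ± 10.8 CPM. In 3 libraries Saa1, an acute phase gene, was above 2000 CPM. It had 4380 CPM in KO ZT4 replicate 2, 2350 CPM in KO ZT20 replicate 1 and 8800 CPM in WT ZT0 replicate 3, against at most 287 CPM in the other libraries. Neutrophil marker genes summed to 31.4, 606 and 484 CPM in these 3 libraries, with medians of 7.41 CPM over KO livers and 8.28 CPM over WT livers, and 4 other libraries, all WT, were above 31.4 CPM, the highest at 172 CPM (WT ZT12 replicate 4). Libraries also differed in how counts depended on the base composition of genes, expressed as a GC slope (the change in log2 CPM per 10 points of transcript GC content, fitted over genes outside the 32). The slope ran from -0.84 to 0.65 and averaged -0.10 ± 0.41 in KO livers and 0.09 ± 0.42 in WT livers (SD). The 8 marker lists were hepatocyte, Kupffer cell, sinusoidal endothelium, stellate cell, neutrophil, lymphocyte, cholangiocyte and adipocyte, with 2 to 10 genes tested in each. Of these genes, 0 were called between the genotypes over all times, against 1.4% of all genes. With lists this short, 0 calls do not show equal cell composition. Differences were below 0 for 9 of 10 hepatocyte and 8 of 9 stellate cell markers, and above 0 for 6 of 10 Kupffer cell markers. The fitted differences of the 9 neutrophil markers were below 0 with SEs of 0.51 to 1.64 (log2, KO minus WT), while 2 of the 9, Mpo and Elane, had a higher mean CPM in KO livers. The part of these library differences in the results below was not tested, except where values without them or with the slope in the fit are given. In bulk liver, fewer cells of a type and less RNA per cell cannot be told apart.

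Over all times, KO livers differed from WT livers in few genes of the table and in 1 of the 32 (the plot of KO minus WT differences of all 32 genes). Of 13646 genes, 191 passed the test (1.4%, adjusted p under 0.05 in edgeR's quasi-likelihood test), 85 higher and 106 lower. Among the 32, 1 of 32 (3.12%) passed, Masp1, which was lower in KO. Of the 32 differences, 15 were above 0 and 17 below, with a median of -0.02 against 0.00 (-0.0047) over all genes (log2, KO minus WT). Without adjustment, 3 of the 32 had p under 0.05, Masp1, Mbl1 and C8g, against 17.1% of all genes, a share that the members did not exceed. With the GC slope in the fit, 11 of the 32 differences changed sign: Fgb, Fgg, F2, F7, F10, F12, Mbl2, C2, C3, C4b and C9.

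**Figure D1:**
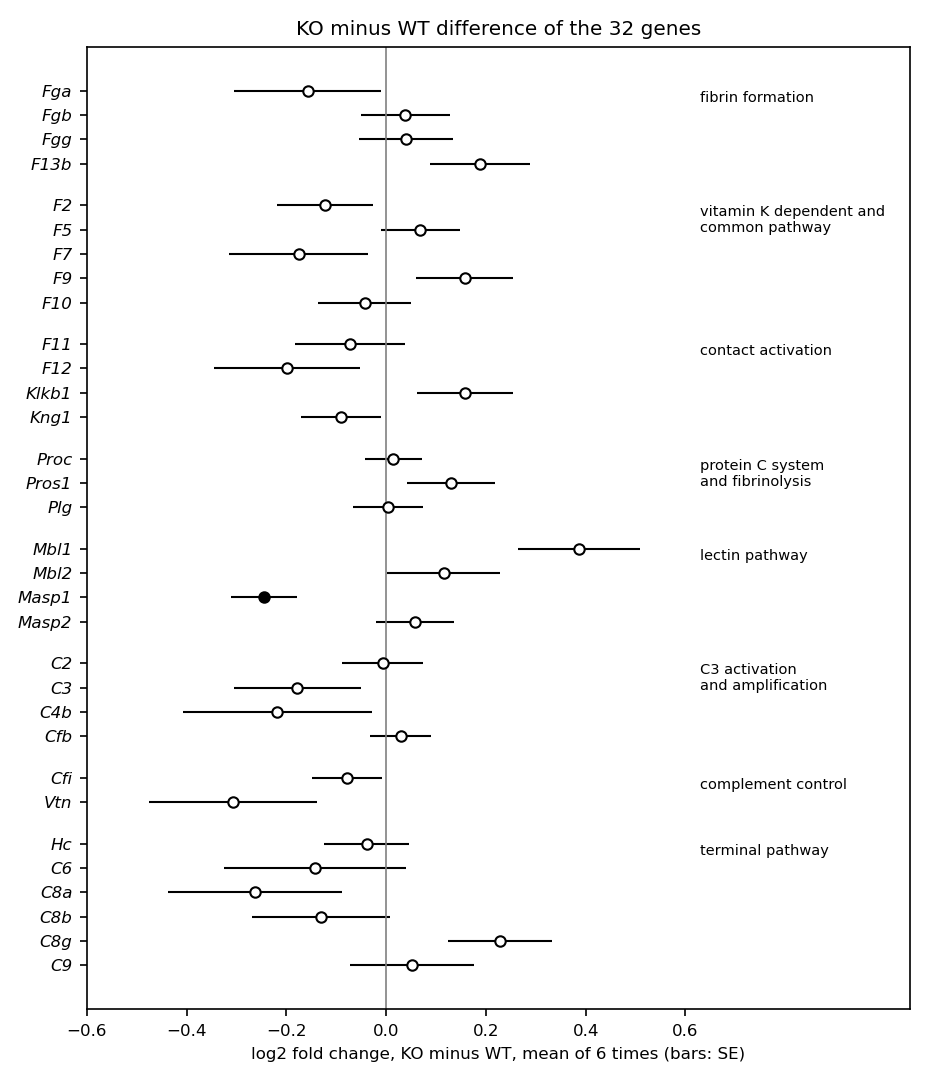
KO minus WT difference of the 32 genes over all times, on a log2 scale (x axis), by role in coagulation or complement (y axis). Points are the mean of 6 times, bars are the SE from the fit (23 KO and 25 WT livers), and the filled point, Masp1, is the 1 gene of the 32 whose adjusted p was under 0.05.

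In the lectin pathway, Masp1, a protease that starts the cascade once a lectin has bound sugar, was lower in KO livers, while its partner Masp2 and the lectins Mbl1 and Mbl2 did not pass the test (the plot of lectin pathway genes by mouse). Masp1 lies at chr16:23449490-23520676 (mm9, identifier ENSMUSG00000022887), and its gene also gives the splice forms MASP-3 and MAp44, which gene counts do not separate. Masp1 had a lowest, median and highest level of 58.5, 84.2 and 108 CPM in KO livers, against 78.5, 101 and 144 CPM in WT livers. The ranges of the genotypes overlapped. The means were 87 ± 14.1 CPM in KO livers and 103 ± 18.2 CPM in WT livers (SD, n = 23 and 25). The log2 difference of Masp1, KO minus WT, was -0.25 with an SE of 0.07 (adjusted p = 0.0486), and its KO mean was below its WT mean at 6 of 6 times.

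The largest gap in Masp1 was at ZT0, where KO livers had 96.2, 83.8, 79 and 77.3 CPM and WT livers had 110, 107, 144 and 103 CPM, so the groups did not overlap. The groups overlapped in every other time, ZT4 included, where KO livers had 74, 106, 91 and 103 CPM and WT livers 117, 108, 119 and 101 CPM. At ZT16 the means were close, 85.8 ± 17.6 CPM in KO livers (n = 3) and 87.4 ± 2.76 CPM in WT livers (n = 5). No single time passed the test for Masp1 (smallest adjusted p over times 0.323, at ZT4, and smallest unadjusted p 0.00637, at ZT0). The call over all times was close to its threshold: the adjusted p was 0.0646 without the 3 libraries of high Saa1, 0.241 with body weight in the fit, 0.0858 with the replicate number as a block and 0.097 with no filter on low counts. It was 0.0336 with the GC slope in the fit, where the difference was -0.26 (SE 0.07). Leaving out single libraries gave adjusted p-values of 0.0227 to 0.131.

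Mbl1, a mannose-binding lectin of mouse plasma, was the member with the largest KO minus WT difference. It had a lowest, median and highest level of 146, 269 and 561 CPM in KO livers, against 137, 204 and 445 CPM in WT livers, which overlapped. The difference of Mbl1 over all times was 0.39 (log2, SE 0.12, adjusted p = 0.0984), above 0 at 6 of 6 times, and did not pass. At ZT4 Mbl1 had 232, 523, 561 and 349 CPM in KO livers and 232, 179, 218 and 170 CPM in WT livers. The lowest KO liver equalled the highest WT liver at this rounding. That difference was 1.06 (log2, SE 0.30, adjusted p = 0.106). The GC slope of libraries at ZT4 averaged -0.34 in KO and 0.23 in WT, and within groups Mbl1 fell as the slope rose (r = -0.65 over 48 libraries, a description). With the slope in the fit, the Mbl1 difference over all times was 0.25 (SE 0.10, adjusted p = 0.199).

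Mbl2, the second mannose-binding lectin, averaged 686 ± 255 CPM in KO livers and 629 ± 188 CPM in WT livers, a difference of 0.12 (log2, SE 0.11, adjusted p = 0.586), and of -0.02 with the slope in the fit. Masp2, the protease that cleaves C4 and C2, averaged 268 ± 42.7 CPM in KO livers and 259 ± 54.1 CPM in WT livers, a difference of 0.06 (log2, SE 0.08, adjusted p = 0.702).

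**Figure D2:**
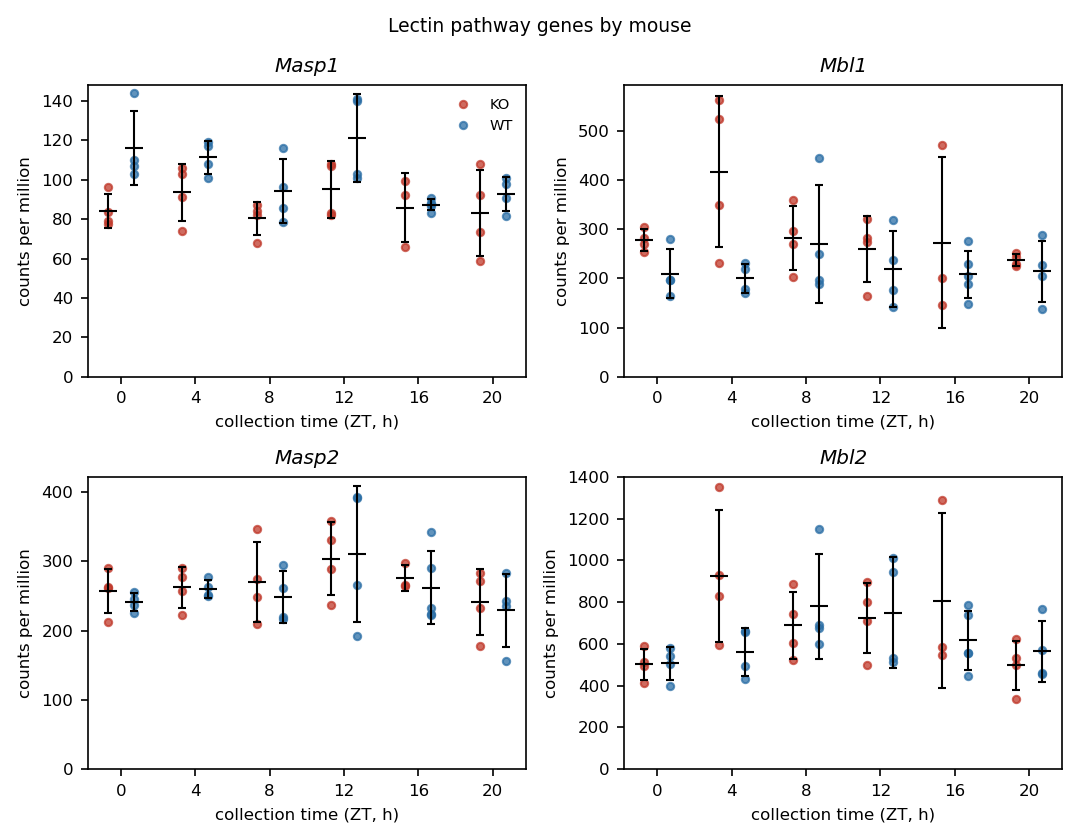
Level of Masp1, Mbl1, Masp2 and Mbl2 in CPM (y axis, from 0) by collection time (x axis, ZT hours), with KO livers left of WT livers. Points are mice, and black marks are the mean and SD of 3 to 5 mice. Masp1 means are lower in KO at all 6 times, and 3 of 4 KO livers at ZT4 are above the WT livers in Mbl1.

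The other role groups had no member past the test over all times. In fibrin formation, Fga, Fgb and Fgg (the fibrinogen chains) and F13b (the carrier subunit of the factor that cross-links fibrin) differed by between -0.16 and 0.19 (log2, KO minus WT). F13b, with the smallest p of the group, had a lowest, median and highest level of 130, 251 and 460 CPM in KO livers and 122, 231 and 383 CPM in WT livers. The F13b difference was 0.19 (SE 0.10, adjusted p = 0.336), and 0.05 (SE 0.05) with the GC slope in the fit. Among the procoagulants F2 (prothrombin), F5, F7, F9 and F10, differences ran from -0.18 for F7 (0.03 with the slope in the fit) to 0.16 for F9. F9, the factor missing in haemophilia B, had 220, 299 and 485 CPM in KO livers and 202, 260 and 470 CPM in WT livers (lowest, median and highest). The F9 difference was 0.16 (SE 0.10, adjusted p = 0.398), and 0.03 (SE 0.05) with the slope in the fit.

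In contact activation, F11, F12, Klkb1 (plasma prekallikrein) and Kng1 (kininogen) differed by -0.20 (F12) to 0.16 (Klkb1). Klkb1 had the smallest p of the group, with a difference of 0.16 (SE 0.10, adjusted p = 0.396), and 0.05 (SE 0.07) with the slope in the fit. The F12 difference was 0.04 with the slope in the fit. Kng1 has a close relative, Kng2, and whether reads were shared between them was not measured here, so the Kng1 count is uncertain. In the protein C system and fibrinolysis, Proc (protein C), Pros1 (its cofactor protein S) and Plg (plasminogen, the precursor of the enzyme that dissolves fibrin) differed by 0.00 (0.0036, Plg) to 0.13. Pros1 at ZT16 had 68.6, 217 and 95.9 CPM in KO livers and 63.9, 102, 77.3, 64.1 and 61.2 CPM in WT livers. Of the KO livers, 1 stood far above the rest and the groups overlapped. The Pros1 difference at ZT16 was 0.79 (log2, SE 0.22, adjusted p = 0.294). Over all times it was 0.13 (SE 0.09, adjusted p = 0.446), and 0.02 without that liver (KO ZT16 replicate 2).

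In the C3 group, C3 (the central complement protein), C4b and C2 (the parts of its main convertase) and Cfb (the protease of the alternative pathway) differed by -0.22 (C4b) to 0.03. C3 had a lowest, median and highest level of 4260, 6700 and 15900 CPM in KO livers and 4730, 9290 and 18800 CPM in WT livers. The C3 difference was -0.18 (log2, SE 0.13, adjusted p = 0.462), and 4e-04 (SE 0.09) with the GC slope in the fit. The C4b difference was 0.10 (SE 0.12) with the slope in the fit. C4b has a close relative, C4a, at 9.77 ± 4.8 CPM in KO livers and 7.85 ± 2.66 CPM in WT livers, and whether reads were shared between them was not measured here. Among the regulators, Cfi, the protease that inactivates C3b, differed by -0.08. Vtn (vitronectin, which blocks the membrane pore) had 831, 1670 and 3770 CPM in KO livers and 686, 2490 and 3930 CPM in WT livers (lowest, median and highest). The Vtn difference was -0.31 (SE 0.17, adjusted p = 0.347), and -0.02 (SE 0.07) with the slope in the fit.

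In the terminal pathway, which builds the pore, Hc (the gene of C5), C6, C8a, C8b, C8g and C9 differed by -0.26 to 0.23. C8g had a lowest, median and highest level of 293, 539 and 1020 CPM in KO livers and 335, 444 and 824 CPM in WT livers. The C8g difference was 0.23 (SE 0.10, unadjusted p = 0.0336, adjusted p = 0.256), and 0.10 (SE 0.08) with the slope in the fit. C8a, its partner chain, had a difference of -0.26 (SE 0.17, adjusted p = 0.432).

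Taken time by time, the table as a whole gave few calls. These were 2 genes at ZT0 (0.0147%), 5 genes at ZT4 (0.0366%) and 3 genes at ZT16 (0.022%), with 0% called at ZT8, ZT12 and ZT20 each. Of the 32, 0 of 32 passed at any of the 6 times by edgeR, and DESeq2 called 1, Mbl1 at ZT4. Members with unadjusted p under 0.05 numbered 9, 8, 0, 3, 3 and 0 at the 6 times in order, against 5.53%, 23.3%, 1.82%, 4.4%, 6.65% and 1.84% of all genes, so that the 8 of 32 at ZT4 were near the share of all genes. At ZT0 all 9 were lower in KO: Fgb, Fgg, Kng1, Masp1, Cfi, Hc, C6, C8a and C9. WT ZT0 replicate 3, the library with the highest Saa1, had the highest value of the study in each of these 9 genes. It also had the highest Fga, at 13100 CPM. Hc was at 1860 CPM in that library, against 599 to 797 CPM in the other WT livers of ZT0. C8a was at 857 CPM there, against 157 to 264 CPM. The part of this library in the 9 differences at ZT0 was not tested. At ZT4, 7 of the 8 were higher in KO (F13b, F9, Klkb1, Mbl1, Mbl2, C8g and C9) and Fga was lower, with the GC slope at ZT4 averaging -0.34 in KO and 0.23 in WT. Leaving out KO ZT4 replicate 1, the KO library of ZT4 with a slope above 0 (0.54), brought 8 members past the test at ZT4, when 24.6% of all genes passed at single times, so this count too was near the share of all genes. The interaction of genotype with time passed for 1 gene of the table (0.00733%) and for 0 of the 32, of which 1 had an unadjusted p under 0.05, and DESeq2 called 0.

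Over the day, 13 of the 32 genes followed a rhythm fitted to both genotypes at once. A 24 h cosine with the same shape in both genotypes passed for 5962 of 13646 genes (43.7%) and for 13 of the 32 (40.6%), a share near that of all genes. The 13 were Fga, Fgb, Fgg, F2, Klkb1, Pros1, Plg, Mbl2, C2, C3, C4b, Vtn and C6. Their amplitudes, the distance from mean to peak of the cosine, ran from 0.18 to 0.52 (log2), with a median of 0.29 against 0.32 over all genes that passed. The peaks of 10 of the 13 (76.9%) fell between ZT17.5 and ZT24, against 37.2% of all genes that passed, in a window drawn after the values were seen (the plot of amplitude against peak time). Klkb1 and Mbl2 peaked at ZT9.59 and ZT9.71, and Pros1 at ZT14.57. Pros1 was close to the threshold (adjusted p = 0.0481 in edgeR) and had its highest mean at ZT16, where 1 KO liver had 217 CPM. It did not pass by DESeq2, with scaling by library totals alone, with no filter on low counts or with Alb kept. Nor did it pass with body weight or age in the fit. With age as a covariate 13 of the 32 passed, 11 of them among these 13.

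**Figure D3:**
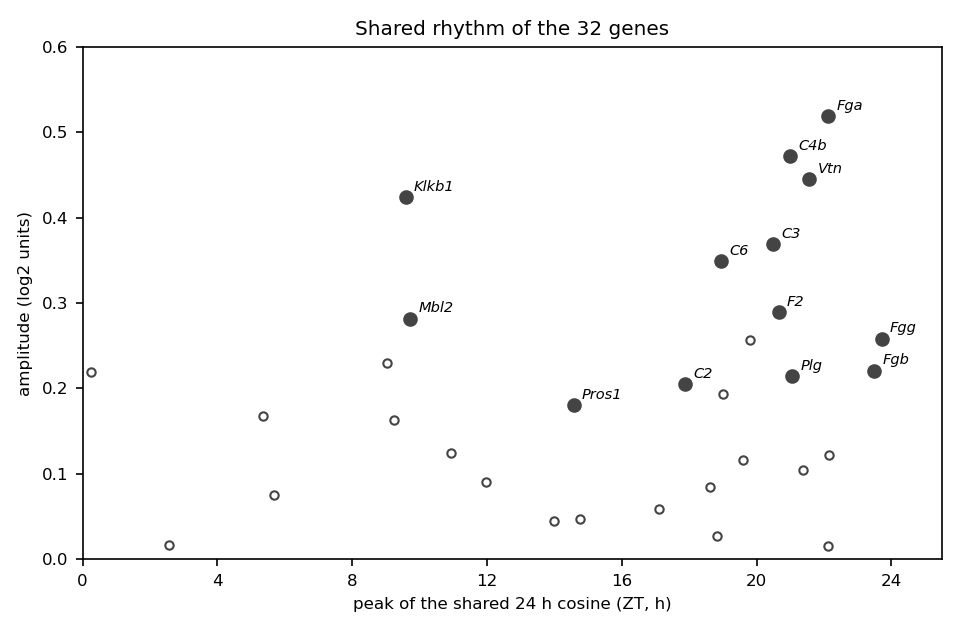
Amplitude (y axis, log2 units) against peak time (x axis, ZT hours) of a 24 h cosine shared by KO and WT, for the 32 genes over 48 livers. Filled, named points are the 13 genes past the test. Fga has the largest amplitude, 0.52, and Klkb1 and Mbl2 are the 2 filled points in the early part of the axis, between ZT8 and ZT11.

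Within each genotype, a cosine passed for 3 of 32 genes in KO (F2, Klkb1 and C3), against 17% of all genes, and for 4 of 32 in WT (Fga, Fgb, Fgg and Klkb1), against 16.3% of all genes. A rhythm that passed in 1 genotype only is not a difference between them. The test of that difference passed for 1 gene of the table (0.00733%) and 0 of the 32, with 0 of the 32 at an unadjusted p under 0.05 and 0 called by DESeq2. The promoters of the 4 genes rhythmic in WT are shown because the genes differ in peak time, 3 near ZT24 and Klkb1 near ZT10. Each is the 250 bases before the RefSeq start, from GRCm38.p6, a later build than the mm9 of the counts. Of the 32 genes, 24 had a promoter in that table. Capitals mark matches, on either strand, to GTTAAT (bound by HNF1), TTNNGNAA (C/EBP type), TTCNNNGAA (STAT type), TTANNTAA (D-box) or AGGTCA (nuclear receptor type).
Fga promoter, chr3:83025903-83026152, plus strand: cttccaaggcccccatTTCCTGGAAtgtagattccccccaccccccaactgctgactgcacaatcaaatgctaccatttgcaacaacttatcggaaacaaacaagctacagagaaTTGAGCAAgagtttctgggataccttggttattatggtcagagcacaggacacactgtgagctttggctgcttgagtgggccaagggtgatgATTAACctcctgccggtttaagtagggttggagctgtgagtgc
Fgb promoter, chr3:83049864-83050113, minus strand: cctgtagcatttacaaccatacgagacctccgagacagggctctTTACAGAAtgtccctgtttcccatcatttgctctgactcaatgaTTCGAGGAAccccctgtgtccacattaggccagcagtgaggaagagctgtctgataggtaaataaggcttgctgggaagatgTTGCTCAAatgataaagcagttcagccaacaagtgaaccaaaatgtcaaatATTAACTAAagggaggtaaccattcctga
Fgg promoter, chr3:83007474-83007723, plus strand: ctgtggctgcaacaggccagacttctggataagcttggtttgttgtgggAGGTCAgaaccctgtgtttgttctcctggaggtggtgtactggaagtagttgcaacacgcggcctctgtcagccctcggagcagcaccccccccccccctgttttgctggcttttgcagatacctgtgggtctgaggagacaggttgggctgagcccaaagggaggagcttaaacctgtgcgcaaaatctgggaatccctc
Klkb1 promoter, chr8:45294836-45295085, minus strand: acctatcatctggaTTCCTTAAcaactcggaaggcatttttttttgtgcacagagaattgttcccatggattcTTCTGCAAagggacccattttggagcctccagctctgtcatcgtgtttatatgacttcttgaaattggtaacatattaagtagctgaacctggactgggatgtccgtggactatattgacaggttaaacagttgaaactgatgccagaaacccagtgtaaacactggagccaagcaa

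The Fga window held GTTAAT, TTNNGNAA and TTCNNNGAA, and the Fgb window held the same 3 plus TTANNTAA, which overlapped its GTTAAT match. The Fgg window held AGGTCA and none of the others, and the Klkb1 window held TTNNGNAA at 2 places and none of the others. Over 25 windows of the 24 genes, GTTAAT was in 28% (6.43% of 32851 windows in the table), TTCNNNGAA in 24% (7.02%), TTNNGNAA in 44% (36.8%), AGGTCA in 36% (14%) and TTANNTAA in 20% (5.43%). The clock's E-box, CACGTG, was in 0 of 25 windows and in 6.02% of all windows. These shares were not adjusted for the base composition of the windows. In 22 of the 25 windows the bases after the start matched the beginning of a transcript of the gene. A match is a description of letters.

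Fga, Fgb and Fgg, whose chains are joined into fibrinogen, lie in a row on chromosome 3 with gaps of 11099 and 8132 bases between them (mm9). At ZT0, Fga had 5250, 5560, 4020 and 5600 CPM in KO livers and 7600, 5990, 13100 and 5480 CPM in WT livers. At ZT8, Fga had 3520, 3630, 2250 and 2270 CPM in KO livers and 3480, 1240, 1950 and 1940 CPM in WT livers. In both genotypes every liver at ZT0 was above every liver at ZT8 for Fga. The Fga amplitude was 0.52 (log2, SE 0.12, adjusted p = 0.0017), with a peak at ZT22.12 and a fold of 2.05 between peak and trough.

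Fgb and Fgg had smaller amplitudes, 0.22 (SE 0.06, adjusted p = 0.0122) and 0.26 (SE 0.07, adjusted p = 0.00618), and peaked at ZT23.48 and ZT23.71. Over the 8 livers of each time, Fgb averaged from 3690 ± 496 CPM at ZT8 to 5650 ± 2200 CPM at ZT0, and Fgg from 3290 ± 461 to 4980 ± 1830 CPM at the same times (SD). Without the 3 libraries of high Saa1 the amplitudes of Fga, Fgb and Fgg were 0.46, 0.18 and 0.21, and all 3 still passed (adjusted p = 0.00854, 0.0445 and 0.029). In WT alone, Fgb and Fgg no longer passed without those 3 libraries.

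**Figure D4:**
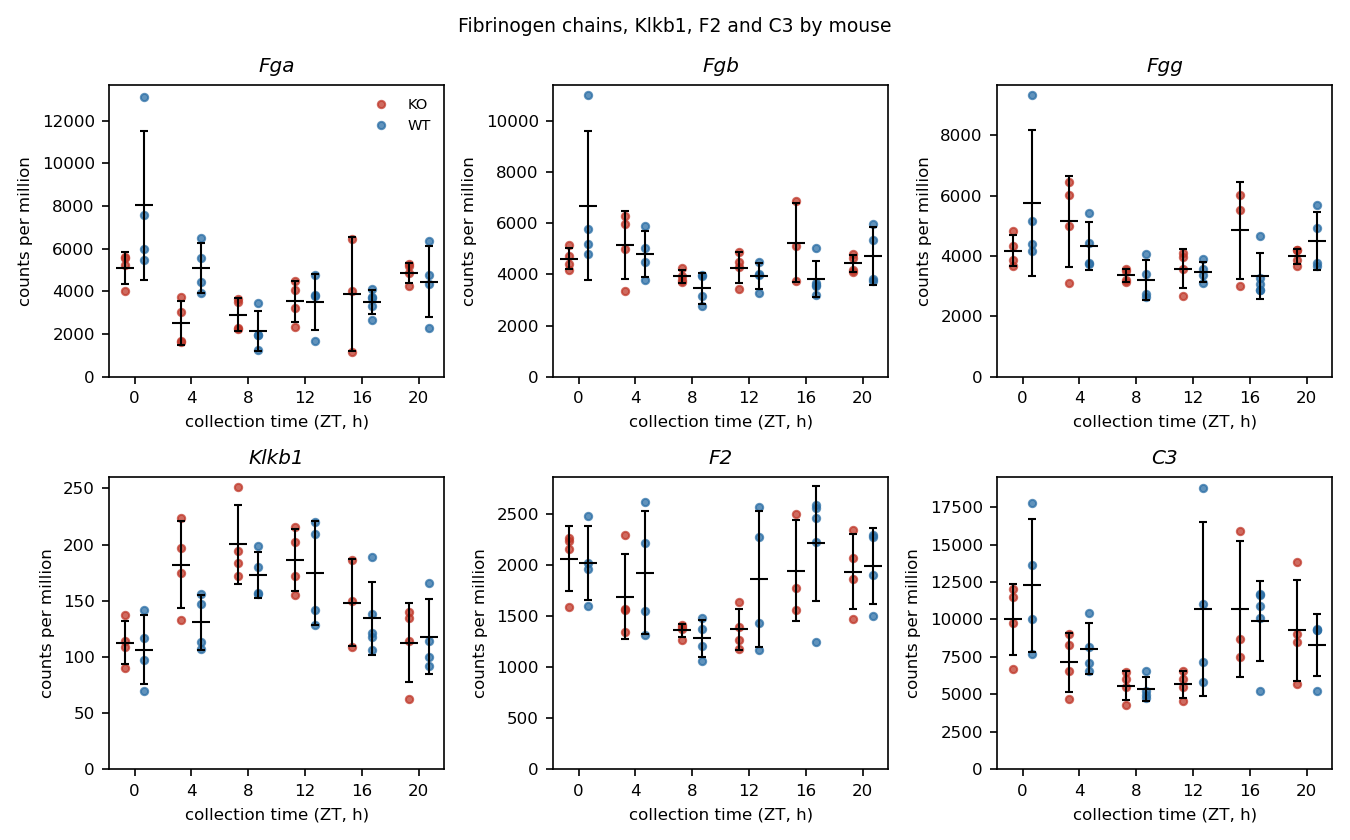
Levels of Fga, Fgb, Fgg, Klkb1, F2 and C3 in CPM (y axis, from 0) by collection time (x axis, ZT hours), with KO livers left of WT livers. Points are mice, and black marks are the mean and SD of 3 to 5 mice. Klkb1 is highest at ZT8 to ZT12, the mean of all mice is lowest at ZT8 for the others, and the 3 fibrinogen genes share 1 high WT liver at ZT0.

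Between livers of the same genotype and time, Fgb and Fgg varied together. Fga did not follow them before the GC slope of the library was removed, and did in part after it. The deviations of Fgb and Fgg from their group means correlated with r = 0.95 (rho = 0.93) over 48 livers, with p = 1e-05 (permutation within groups, two-sided, the smallest that 100000 draws can give, adjusted over 6 relations p = 3e-05). The r was 0.93 without the 2 livers farthest from the median. Fga correlated with Fgb at r = 0.12 (rho = 0.14, permutation p = 0.588, adjusted 0.882, r = 0.15 without 2 livers) and with Fgg at r = -0.02 (rho = 0.06, permutation p = 0.941, adjusted 0.994, r = 0.06 without 2 livers). Fga rose with the GC slope of the library (r = 0.64 within groups, GC content 49.3%) while Fgb and Fgg fell with it (r = -0.49 and -0.52, GC content 44.1% and 44.7%).

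With the slope removed, Fga and Fgb correlated at r = 0.64 (rho = 0.54, permutation p = 0.00037, adjusted 0.00074, r = 0.50 without 2 livers) and Fga and Fgg at r = 0.49 (rho = 0.41, permutation p = 0.019, adjusted 0.0285, r = 0.30 without 2 livers). Fgb and Fgg stayed at r = 0.93 (rho = 0.89, permutation p = 1e-05, adjusted 6e-05, r = 0.90 without 2 livers). The chains of C8 gave a like picture for the neighbours C8a and C8b, at r = 0.75 (rho = 0.71, permutation p = 1e-05, adjusted 3e-05, r = 0.68 without 2 livers) and r = 0.75 (rho = 0.71, permutation p = 4e-05, adjusted 0.00012, r = 0.67 without 2 livers) with the slope removed. C8g, on another chromosome, correlated with C8a at r = 0.27 (rho = 0.39, permutation p = 0.11, adjusted 0.22, r = 0.31 without 2 livers) and with C8b at r = -0.00 (-0.002, rho = 0.15, permutation p = 0.994, adjusted 0.994). The permutation p of rho lay on the same side of 0.05 as that of r in each pair, with and without the slope, except for C8a and C8g before the slope was removed (rho p = 0.0164, adjusted 0.0328). With the slope removed, the rho of C8a and C8g was 0.16 (permutation p = 0.366).

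Klkb1 had the smallest p of the 32 for the shared rhythm. At ZT8, Klkb1 had 184, 172, 194 and 251 CPM in KO livers and 199, 180, 156 and 157 CPM in WT livers. At ZT0 it had 137, 90.3, 109 and 114 CPM in KO livers and 96.8, 69.8, 142 and 117 CPM in WT livers. Every liver at ZT8 was above every liver at ZT0 in Klkb1. Its amplitude was 0.42 (log2, SE 0.07, adjusted p = 1.35e-05), a fold of 1.8 between peak and trough, and 0.32 (SE 0.05, adjusted p = 4.31e-06) with the GC slope in the fit. Its neighbour F11, 7410 bases away on chromosome 8 (mm9), had an amplitude of 0.09 (SE 0.08, adjusted p = 0.422).

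F2, Plg, C3, C4b and Vtn were lowest at ZT8 and peaked between ZT20.48 (C3) and ZT21.56 (Vtn). Over the 8 livers of a time, F2 averaged from 1320 ± 137 CPM at ZT8 to 2110 ± 522 CPM at ZT16, and its amplitude was 0.29 (log2, SE 0.07, adjusted p = 0.00388). Plg averaged from 2200 ± 283 CPM at ZT8 to 3220 ± 602 CPM at ZT16, with an amplitude of 0.21 (SE 0.05, adjusted p = 0.0105). C3 averaged from 5460 ± 836 CPM at ZT8 to 11100 ± 3530 CPM at ZT0, with an amplitude of 0.37 (SE 0.10, adjusted p = 0.00824). Vtn averaged from 1210 ± 212 CPM at ZT8 to 2750 ± 567 CPM at ZT0, with an amplitude of 0.45 (SE 0.13, adjusted p = 0.00863).

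The GC slope also moved with time, from a mean of -0.26 at ZT8 to 0.19 at ZT0 (the plot of 4 genes against the GC slope). F2, C3, C4b and Vtn rose with it within groups (r = 0.85, 0.78, 0.82 and 0.93 over 48 libraries, a description). With the slope in the fit, the amplitudes were 0.16 for F2 (adjusted p = 0.0116), 0.15 for Plg (0.0413), 0.21 for C3 (0.0544), 0.21 for C4b (0.136) and 0.18 for Vtn (0.00988). In that fit 12 of the 32 passed, against 47.1% of all genes: Fga, Fgb, Fgg, F2, F9, Klkb1, Pros1, Plg, Masp2, C2, Vtn and C6. The slope was fitted to the genes outside the 32. Whether it carries library preparation or liver biology was not tested.

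**Figure D5:**
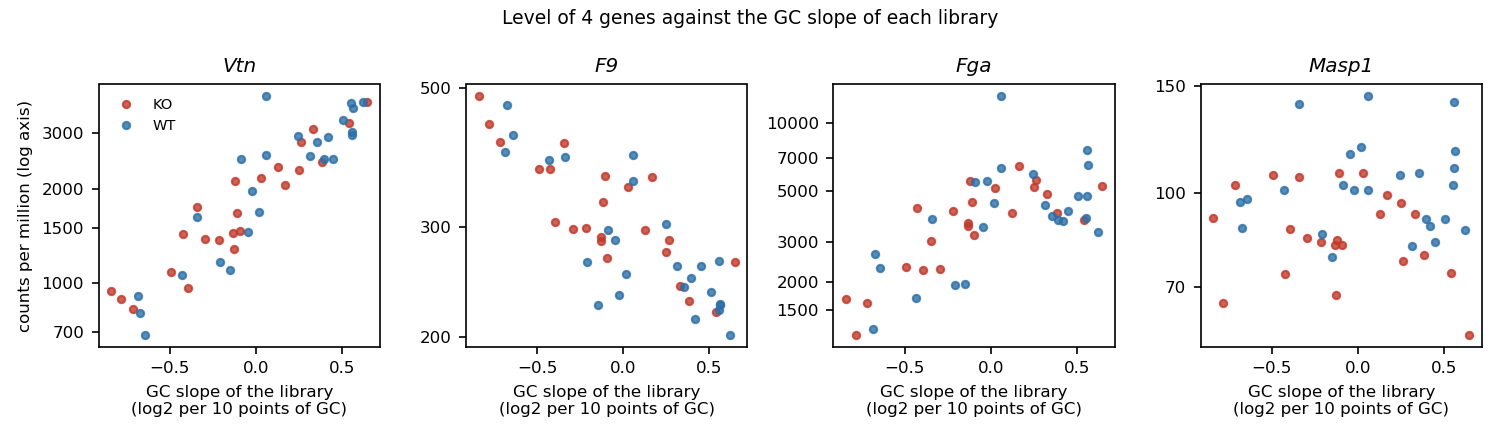
Levels of Vtn, F9, Fga and Masp1 in CPM (y axis, log scale) against the GC slope of each library (x axis, change in log2 CPM per 10 points of transcript GC). Points are 23 KO and 25 WT livers. Vtn rises with the slope (r = 0.93 within groups), F9 falls with it (r = -0.88), and Masp1 shows little relation (r = -0.11).

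Outside the 32, of 26 further complement genes tested, 1 was called lower in KO livers and 0 higher, against 1.4% of all genes called. This was C7, which joins C6 in the pore, at 0.20 ± 0.16 CPM in KO livers and 0.61 ± 0.47 CPM in WT livers. Its log2 difference was -1.68 with an SE of 0.33 (adjusted p = 0.00417), at levels near the floor of the counts. Of 22 acute phase genes outside the 32, 0 were called and 17 had differences below 0. Their median was -0.18, against 0.00 (-0.0047) over all genes (log2). These genes together reached 88800 CPM in 1 WT library (median 19100 CPM) and at most 42400 CPM in KO livers (median 17300 CPM). The part of the libraries of high Saa1 in these differences was not tested. Of 19 liver transcription factors, 0 were called.

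Rhythms shared by both genotypes passed for 11 of 28 further coagulation and fibrinolysis genes tested, 7 of the 26 complement genes, 11 of the 22 acute phase genes and 11 of the 19 transcription factors, against the 43.7% of all genes. Thbd, the endothelial receptor that turns thrombin towards protein C, peaked at ZT17.2 with an amplitude of 0.56 (log2, adjusted p = 2.76e-05). Cd59a, which blocks the pore on host cells, peaked at ZT8.38 with an amplitude of 0.34 (adjusted p = 5.97e-05). Among the acute phase genes, Lbp peaked at ZT21.18 with 0.67 (adjusted p = 5.93e-06), Itih4 at ZT21.6 with 0.56 (adjusted p = 0.00122) and Socs3 at ZT22.56 with 0.56 (adjusted p = 0.000447). Saa2 and Saa1, with smaller p than Itih4 and Socs3, peaked at ZT23.76 and ZT23.99 (edgeR adjusted p = 0.000136 and 0.000349). Not all that passed peaked late: Saa4 did so at ZT14.46 (edgeR adjusted p = 0.00396) and Apcs at ZT5.15 (edgeR adjusted p = 0.026). Dbp, a clock output factor that binds D-box sites, peaked at ZT9.02 with an amplitude of 2.49 (adjusted p = 1.45e-12), and its repressing counterpart Nfil3 at ZT21.1 with 1.21 (adjusted p = 6.16e-08).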

How the data were processed

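RNA of 48 livers was sequenced from stranded polyA libraries with 13 PCR cycles, per the labels' protocols. The deposited table holds read counts per gene as whole numbers, with mm9 coordinates per the file headers. Reads were handled with CASAVA and STAR 2.4.1d on mm9, per the submitters' processing notes, and the counting program is not given in the sources used here. Totals without Alb were about 12.9e6 per library, so depth differed little. Alb, 5.66% to 14.6% of counts, was marked apart in the table and left out. The authors' counts were tested in R 4.3.3 with edgeR 4.0.16: filterByExpr, TMM, a quasi-likelihood fit of 12 genotype-by-time means, and 24 h cosine fits, with Benjamini-Hochberg adjustment over all 13646 genes and a threshold of 0.05. CPM and SD come from the scaled libraries, and amplitudes from least squares on log2 CPM (prior count 2). DESeq2 1.42.0, other scalings, covariates and omissions were alternatives. The GC slope and the omission of the 3 libraries of high Saa1 were chosen after seeing the data. The 32 members and all lists were chosen with earlier results of these data known. Members described by sample were those called between genotypes, the 8 with the smallest p for the shared rhythm and the smallest p of each role group, and the other values shown were chosen after they were seen. The tests were tried on simulated counts, drawn gene by gene without a GC slope or libraries of high Saa1. That trial does not show how the tests behave with these features. The difference between genotypes in the further coagulation genes is not reported here.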

Additional observations from a re-analysis of the deposited data

Results flagged for a closer look

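Groups of 4 or 5 livers were tested for each member described by sample, which gave 143 combinations of gene and group. In 11 of the 143 a library lay apart from the rest by Dixon's criterion, which chance gives in about 1 in 20. The same livers recur across genes, so the 143 are not independent and the 11 cannot be set against that rate. WT ZT16 replicate 2 accounted for 6 of the 11, and its GC slope was -0.67, against 0.39 to 0.62 in the other WT livers of ZT16. In that library F2 was at 1240 CPM against 2220 to 2590 CPM in the other WT livers of ZT16, C3 at 5240 CPM against 10100 to 11700 CPM, and Plg at 2230 CPM against 3110 to 3380 CPM. In the same library Fgg was at 4680 CPM against 2870 to 3260 CPM, Fgb at 5040 CPM against 3210 to 3680 CPM, and F9 at 470 CPM against 202 to 260 CPM. KO ZT0 replicate 2 had F2 at 1590 CPM, against 2160 to 2260 CPM in the other KO livers of ZT0, and Plg at 2610 CPM, against 3380 to 3410 CPM. WT ZT20 replicate 2, with a GC slope of -0.64, had C3 at 5200 CPM, against 9290 to 9330 CPM. WT ZT0 replicate 3, the library of highest Saa1, had Fgb at 11000 CPM, against 4790 to 5790 CPM, and WT ZT0 replicate 4 had C8g at 370 CPM, against 432 to 444 CPM.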

How the results depend on the processing

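The count of 1 member called over all times became 0 with no filter on low counts, with body weight as a covariate, with the replicate block and without the 3 libraries of high Saa1, and 8 with the first principal component of the within-group residuals as a covariate. That component (36.4% of the residual variance, r = 0.99 with the within-group GC slope) was built from deviations within groups. It therefore narrows the spread and leaves the least squares amplitudes as they are. The differences from the count fit did move, to 16 members above 0 and 16 below, with C2 going from -0.0072 to 0.0014 (log2, KO minus WT). With it, 14 calls were made at single times (10 of them at ZT4, where 31% of all genes passed), 5 for the interaction (14.1% of all genes), 20 for the shared rhythm (60.8%), 13 for the rhythm in KO (41.5%) and 9 in WT (34.1%), where DESeq2 made 1 call at single times. All genes called over all times were then 2877 (21.1%), against 191. Members rhythmic in KO were 1 with no filter and 5 with age as a covariate, and those in WT were 2 without the 3 libraries of high Saa1. Leaving out single libraries gave 0 to 2 calls over all times (2 without KO ZT4 replicate 1, KO ZT16 replicate 2 or WT ZT8 replicate 2), 0 to 8 at single times (8 without KO ZT4 replicate 1, 2 without KO ZT16 replicate 3, 1 without KO ZT16 replicate 1), 12 to 16 for the shared rhythm, 1 to 10 for the rhythm in KO (10 without KO ZT16 replicate 3, 5 without KO ZT20 replicate 3, 1 without any of 13 other KO libraries) and 2 to 5 in WT (2 without WT ZT0 replicate 3). The call of Masp1 ended when any of 28 libraries was omitted, with adjusted p-values from 0.0505 to 0.131: in KO, replicates 2, 3 and 4 of ZT0, 3 and 4 of ZT4, 2 and 3 of ZT8, 3 and 4 of ZT12, 3 of ZT16 and 1 and 3 of ZT20, and in WT, replicates 1, 2 and 3 of ZT0, 1, 2 and 3 of ZT4, 1 and 4 of ZT8, 1 and 3 of ZT12, 1, 3 and 4 of ZT16 and 2, 3 and 4 of ZT20. Its difference stayed between -0.27 and -0.22. The differences of 11 members changed sign with the GC slope as a covariate, C3 among them at 4e-04. Same-numbered KO and WT livers of a time had correlated deviations in some pairs and not in others (r of -0.387 to 0.489 over 23 pairs, median 0.121, 13 above 0.1). In 22 of the 23 pairs both mice had the same labelled age, but the labels state no shared litter or batch, so the numbers were not taken as a pairing, and the replicate block gave Masp1 a difference of -0.26 (adjusted p = 0.0858). No shared, KO or WT rhythm could be fitted with the block. The cause of these changes was not tested. Every member had at least 65 counts in every library (C6 the lowest).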

Other observations

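Several liver transcription factors known to bind promoters of coagulation and complement genes varied over the day with a cosine shared by KO and WT. Hnf4a, a nuclear receptor that drives many hepatocyte genes, peaked at ZT17.83 with an amplitude of 0.32 (log2, SE 0.06, edgeR adjusted p = 0.000103). Cebpb and Cebpd, C/EBP factors of the acute phase response, peaked at ZT15.79 and ZT15.7 with amplitudes of 0.60 (SE 0.15, adjusted p = 0.00434) and 0.64 (SE 0.12, adjusted p = 5.38e-05). Stat3, which carries the interleukin-6 signal, peaked at ZT21.37 with an amplitude of 0.39 (SE 0.11, adjusted p = 0.0179). Cebpa, the steady C/EBP factor of hepatocytes, had an amplitude of 0.03 (SE 0.07, adjusted p = 0.961). Between genotypes Cebpd averaged 5.62 ± 4.3 CPM in KO livers and 8.92 ± 4.5 CPM in WT livers, a log2 difference of -0.59 with an SE of 0.18 that did not pass (adjusted p = 0.0817).

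Tef and Hlf, the other D-box binding activators beside Dbp, peaked at ZT11.03 and ZT11.75 with amplitudes of 1.17 (SE 0.09, adjusted p = 9.99e-14) and 0.33 (SE 0.05, adjusted p = 3.8e-06). Vkorc1, the enzyme that recycles vitamin K for the clotting factors that depend on it, peaked at ZT9.08 with an amplitude of 0.18 (SE 0.05, adjusted p = 0.00632). Ggcx, the carboxylase that uses this vitamin K, peaked at ZT21.83 with an amplitude of 0.24 (SE 0.07, adjusted p = 0.016). Clu, clusterin, which binds the terminal complement complex, peaked at ZT21.06 with an amplitude of 0.53 (SE 0.14, adjusted p = 0.0019). These genes were chosen after their values were seen.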
